A study of Homo sapiens with 6 samples.

Results

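The genes described here supply dividing cells with the building blocks of DNA and RNA: 32 genes of nucleotide, folate one-carbon and serine synthesis, out of 19775 genes read on the arrays. They were chosen by name, as the probe sets annotated to a listed gene, which gave 81 of the 54613 probe sets tested. Of these, 76 carried a single gene symbol and were used to read the genes, and 5 were also annotated to other genes and are given separately. RNA came from MCF10A, an established line of human mammary epithelial cells that does not form tumours. One group received, by transfection, a mimic of both miR-221 and its relative miR-222, called the mimic below, and the other a control microRNA, miR-control. Each group had 3 biological replicates, and each replicate had its own array. How much mimic was given, and how long before RNA was taken, is not given in the sources used here.

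Cells build purines and pyrimidines from small precursors, and folate carries the single-carbon units that purine rings and thymidylate require. Serine, made from a glycolytic intermediate by PHGDH, PSAT1 and PSPH in turn, donates those units through the SHMT and MTHFD enzymes. Ribonucleotide reductase and thymidylate synthase then convert ribonucleotides into the deoxynucleotides used in DNA replication, and several of these genes are known to be expressed most in S phase.

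The 2 microRNAs of the mimic are shown because they are what distinguished the groups. Their mature sequences, from RefSeq (GRCh38.p14, minus strand of the X chromosome), share the seed, bases 2 to 8, printed in capitals. The sequence of the mimic itself is not given in the sources used here.
hsa-miR-221-3p: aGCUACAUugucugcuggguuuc
hsa-miR-222-3p: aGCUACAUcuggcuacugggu
They map to chrX:45746180-45746202 and chrX:45747036-45747056. Messenger RNA target sites of this seed were not analysed here.

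Most of the synthesis genes were lower in the mimic arrays; in bulk RNA, fewer cells in a phase of the cycle and less RNA per cell cannot be told apart. Of the 32 genes, 19 fell, 3 rose and 10 did not pass an adjusted p of 0.05 (limma with Benjamini-Hochberg adjustment over all probe sets). Over all 19775 genes, 16.3% fell and 14.1% rose. The largest changes among the 32 were falls: RRM2, a subunit of ribonucleotide reductase, was 5.94-fold higher in the control, followed by PSPH at 3.54-fold, TYMS at 2.74-fold, NME1 at 2.67-fold and TK1 at 2.32-fold. These 5 were the members at least 2-fold lower in the mimic, a size reached by 2.09% of all genes. At the single-symbol probe sets 0 members were at least 2-fold higher, against 0.961%. A probe set annotated to MTHFD1L and 2 other genes, given below, was 2.02-fold higher in the mimic and is not counted here. The 3 genes that rose were PHGDH, DCK and PSAT1, each by less than 1.5-fold. The median log2 difference, mimic minus control, was -0.33 over the 32 genes and 0.03 over all genes. Arrays of the groups did not overlap for 21 members with the mimic lower and for 3 with the mimic higher, against 21.9% and 23.7% of all genes.

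**Figure D1:**
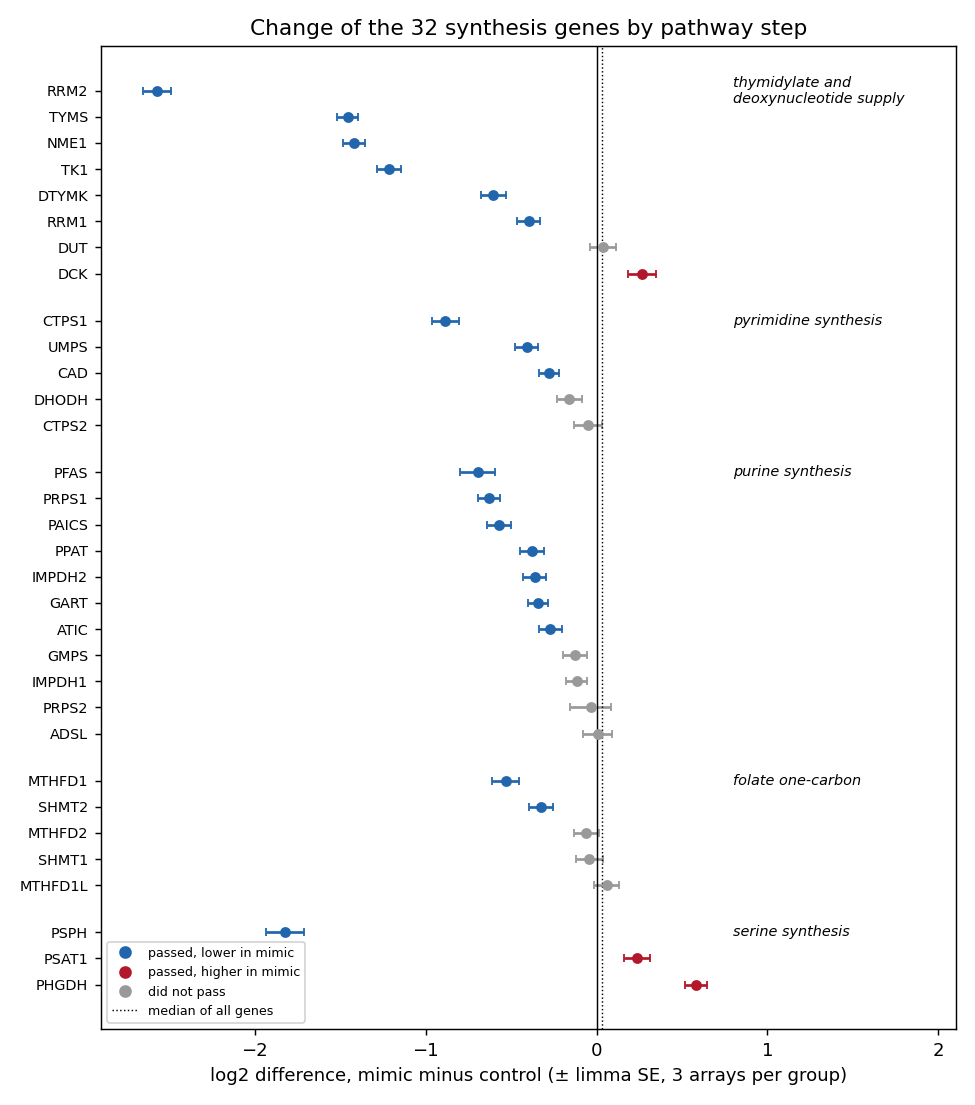
Log2 difference, mimic minus control, with limma's standard error (horizontal bars) for each of the 32 genes, grouped by pathway step. Blue genes passed the test and were lower in the mimic (19), red ones were higher (3) and grey ones did not pass (10); the deoxynucleotide group holds 4 of the 5 genes that were at least 2-fold lower.

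The enzymes of deoxynucleotide and thymidylate supply had the largest falls as a group: 6 of 8 fell, 1 rose and 1 did not pass, with a median log2 difference of -0.91. RRM2 encodes the small, radical-bearing subunit of ribonucleotide reductase. Its log2 intensity was 8.43, 8.31 and 8.21 in mimic replicates 1, 2 and 3, and 10.91, 11.01 and 10.74 in the control replicates. The nearest arrays of the groups were 2.32 log2 units apart, and the difference was -2.57 ± 0.08 (SE, adjusted p = 5.7e-09, limma). RRM1, which encodes the large catalytic subunit, fell by 0.40 on the log2 scale, from 11.20 ± 0.05 to 10.81 ± 0.10 (SD, n = 3 each).

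TYMS, thymidylate synthase, makes dTMP from dUMP with a folate as the carbon donor. It read 8.69, 8.78 and 8.80 in the mimic arrays against 10.19, 10.25 and 10.19 in the control arrays. The replicates of each group agreed within 0.12 log2 units while the groups stood 1.46 ± 0.06 (SE) apart (adjusted p = 3.4e-08, limma). TK1, the cytosolic thymidine kinase that salvages thymidine, read 7.85, 7.81 and 7.67 in the mimic arrays against 9.04, 8.93 and 9.01 in the control arrays. It fell by 1.22 ± 0.07 on the log2 scale (SE). DTYMK, the kinase that follows both routes to dTMP, read 9.45, 9.64 and 9.68 in the mimic arrays against 10.20, 10.23 and 10.15 in the control arrays. The fall was smaller, 0.60 on the log2 scale, and mimic replicate 1 was the lowest array.

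NME1 encodes a nucleoside diphosphate kinase, which charges diphosphates to triphosphates. It read 10.65, 10.80 and 10.75 in the mimic arrays against 12.18, 12.15 and 12.11 in the control arrays, and fell by 1.42 ± 0.06 on the log2 scale (SE, adjusted p = 5.1e-08, limma). The groups were far apart and did not overlap. NME1 lies beside the closely similar gene NME2, and the signal of its single probe set may hold both.

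DUT and DCK did not follow the other genes of deoxynucleotide supply. DUT, which removes dUTP and thereby supplies dUMP, had a log2 difference of 0.04 ± 0.07 (SE) at the probe set used, which did not pass. That probe set has the suffix x_at, which marks probes that can bind other transcripts, and of the other DUT probe sets the brighter one (-0.00074) did not pass either, while the dimmest fell by 0.40. DCK, which salvages deoxycytidine, read 9.23, 9.38 and 9.47 in the mimic arrays against 9.22, 9.01 and 9.05 in the control arrays. Mimic replicate 1 was only just above control replicate 1, and the difference of 0.27 ± 0.08 (SE) had an adjusted p of 0.0357 (limma). It no longer passed without mimic replicate 2 (difference 0.25, adjusted p = 0.111), mimic replicate 3 (0.21, 0.104), control replicate 2 (0.22, 0.135) or control replicate 3 (0.24, 0.0929), and with arrays centred on their medians (0.24, 0.0750).

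**Figure D2:**
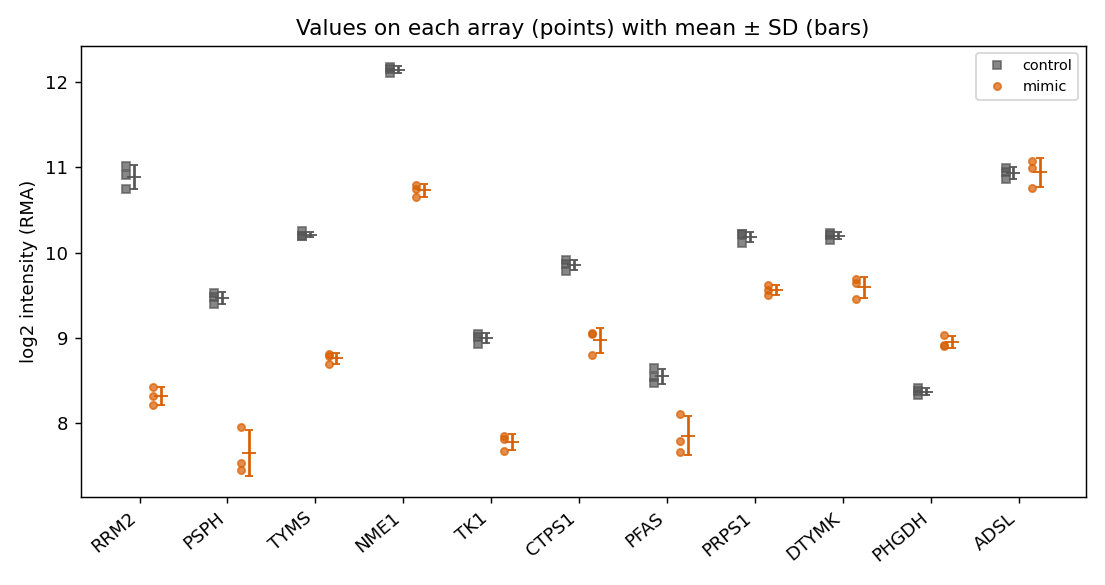
Log2 intensity of the 9 genes that were at least 1.5-fold lower in the mimic, and of PHGDH and ADSL, on each array (points), with the mean and SD of each group of 3 (bars). Mimic arrays lie below all control arrays for the 9 genes and above them for PHGDH, and the groups overlap for ADSL.

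Pyrimidine synthesis fell in part: 3 of 5 genes fell, 0 rose and 2 did not pass, with a median log2 difference of -0.28. CTPS1, a CTP synthase, changed most. It read 8.80, 9.05 and 9.06 in the mimic arrays against 9.91, 9.87 and 9.78 in the control arrays, a difference of -0.89 ± 0.08 (SE, adjusted p = 9.6e-06, limma). The groups were separated by 0.73 log2 units between the nearest arrays. The related gene CTPS2 had a difference of -0.05 ± 0.08 (SE) at its brightest probe set and did not pass. At the other CTPS2 probe set the signal fell by 0.42 on the log2 scale (adjusted p = 0.00560, limma). UMPS, which completes UMP, fell by 0.41 ± 0.07 on the log2 scale (SE), at an x_at probe set, and by 0.43 at a second one without that suffix. CAD, which carries out the opening steps of the pathway, fell by 0.28 ± 0.06 (SE) with the smallest spread among the mimic arrays of any member (SD 0.03, n = 3). DHODH, the mitochondrial step between them, had a difference of -0.16 ± 0.07 (SE). It did not pass over all arrays (adjusted p = 0.153, limma), but passed without mimic replicate 1 (-0.23, adjusted p = 0.0185) and with array weights (-0.20, adjusted p = 0.0177).

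In purine synthesis 7 of 11 genes fell, 0 rose and 4 did not pass, with a median log2 difference of -0.34. PFAS, an enzyme of the middle of the pathway, read 7.65, 7.79 and 8.11 in the mimic arrays against 8.64, 8.47 and 8.53 in the control arrays. Mimic replicate 3 was the highest of its group but still below every control array, and the difference was -0.70 ± 0.10 (SE, adjusted p = 0.000449, limma). PRPS1 makes PRPP, the activated ribose on which the purine ring is built. It read 9.62, 9.56 and 9.50 in the mimic arrays against 10.22, 10.22 and 10.12 in the control arrays, a fall of 0.63 ± 0.06 on the log2 scale (SE). The groups of 3 were each tight and did not overlap.

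PAICS (-0.57), PPAT, which catalyses the committed step (-0.38), GART (-0.34) and ATIC, which closes the ring to IMP (-0.27), also fell, with log2 differences as given. IMPDH2, the enzyme that directs IMP toward guanine nucleotides, fell by 0.36 ± 0.07 on the log2 scale (SE). ATIC had the weakest support of these falls (adjusted p = 0.0115, limma), and the call was lost with the intensity trend removed (-0.20, adjusted p = 0.0503). IMPDH1 (-0.12 ± 0.06, SE) and GMPS, which makes GMP (-0.13 ± 0.07, SE), did not pass. All mimic arrays read lower than any control array for both, but the nearest arrays were only 0.02 and 0.003 log2 units apart. At the other GMPS probe sets (-0.07 and 0.05) the groups overlapped. PRPS2 had a difference of -0.04 ± 0.12 (SE), with the widest spread of any member in the control arrays (SD 0.14, n = 3). ADSL, which acts in purine ring synthesis and in making AMP, had the largest adjusted p of all members, 0.965 (limma). It read 10.75, 10.99 and 11.08 in the mimic arrays against 10.996, 10.95 and 10.86 in the control arrays, and the groups overlapped.

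Of the 5 folate enzymes, 2 fell, 0 rose and 3 did not pass at the probe sets with a single gene symbol (median log2 difference -0.06). MTHFD1, the cytosolic enzyme that interconverts folate-bound carbon units, fell from 11.03 ± 0.11 to 10.50 ± 0.11 (SD, n = 3 each). SHMT2, the mitochondrial enzyme that takes the carbon unit from serine, fell from 11.55 ± 0.04 to 11.22 ± 0.10 (SD, n = 3 each). MTHFD2, its mitochondrial partner, averaged 11.67 ± 0.12 and 11.73 ± 0.05 (SD, n = 3 each), with an adjusted p of 0.611 (limma).

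SHMT1 and MTHFD1L depended on which probe sets were read. The SHMT1 probe set used averaged 6.71 and 6.76 in the mimic and control arrays, below the array medians of 7.59 to 7.66, and did not pass. A brighter one, annotated to SHMT1 and to the microRNA gene MIR6778, read 10.53, 10.26 and 10.30 in the mimic arrays against 10.64, 10.60 and 10.60 in the control arrays, a fall of 0.24 on the log2 scale (adjusted p = 0.0390, limma). A further one with the same annotation fell by 0.64 ± 0.07 (SE). Both probe sets above the array medians thus fell, under an annotation that SHMT1, the cytosolic counterpart of SHMT2, shares with 1 other gene.

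The single-symbol probe set of MTHFD1L, which releases formate in mitochondria, was also dim, at 6.75 and 6.69, and did not pass (0.06 ± 0.07, SE). A probe set annotated to MTHFD1L and 2 uncharacterised genes read 11.47, 11.59 and 11.70 in the mimic arrays against 10.63, 10.54 and 10.55 in the control arrays. It rose by 1.02 ± 0.07 on the log2 scale (SE, adjusted p = 1.4e-06, limma), with all mimic arrays above all control arrays. A further probe set with these 3 gene names rose by 0.80 ± 0.07 (SE). Which of the 3 annotated genes gave these rises is not known. With the probe sets of several genes read too, a choice made after seeing the data, 20 members fell and 3 rose. MTHFD1L and SHMT1 were then called and PHGDH, at a probe set annotated also to MZT2A and MZT2B (-0.08, adjusted p = 0.378), was not.

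The serine pathway split. PHGDH, the entry enzyme, read 8.90, 9.03 and 8.92 in the mimic arrays against 8.32, 8.40 and 8.37 in the control arrays. All mimic arrays were higher, and the difference was 0.58 ± 0.06 (SE, adjusted p = 4.5e-05, limma), which is 1.499-fold higher. PSAT1, the aminotransferase of the middle step, read 10.68, 10.76 and 10.92 in the mimic arrays against 10.65, 10.52 and 10.48 in the control arrays. Mimic replicate 1 was above control replicate 1 by only 0.03 log2 units, and the difference of 0.24 ± 0.08 (SE) had an adjusted p of 0.0465 (limma). It no longer passed with the replicate number as a block (adjusted p = 0.0629, limma), without mimic replicate 2 (0.25, adjusted p = 0.0985), mimic replicate 3 (0.17, 0.144), control replicate 2 (0.22, 0.134) or control replicate 3 (0.20, 0.127), and with arrays centred on their medians (0.21, 0.103). The second PSAT1 probe set had a difference of 0.21 and did not pass.

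PSPH, the phosphatase that releases serine, went the other way. It read 7.45, 7.53 and 7.95 in the mimic arrays against 9.53, 9.47 and 9.40 in the control arrays. Mimic replicate 3 was the highest of its group and PSPH had the widest spread of any member among the mimic arrays (SD 0.27, n = 3), yet the nearest arrays of the groups were 1.45 log2 units apart. The difference was -1.82 ± 0.11 (SE, adjusted p = 5.4e-07, limma), and a second PSPH probe set fell by 1.61. PSPH has a closely similar pseudogene copy, and whether the probes separate them is not known.

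The probe sets of a gene differed in size and often in sign. Of the 24 members with several single-symbol probe sets, 11 had differences of both signs, though those on the higher side did not pass. Of the 76 single-symbol probe sets, 37 fell, 3 rose and 36 did not pass, where 13.1% of all probe sets fell and 11.6% rose. Of the 36 that did not pass, 18 had a mean below the median of the array medians, 7.62, as did 2 of the 37 that fell and 0 of the 3 that rose. Of the genes with several, RRM1, RRM2, TK1, PRPS1 and PAICS fell at every probe set. RRM2 fell by 1.39 at its other probe set and TYMS by 1.11 at its second, so the size of a fall varied with the probe set. GART, with 9 probe sets, fell at 4, by 0.34 to 0.62 on the log2 scale. CTPS2 did not pass at its brightest probe set but fell by 0.42 at the other (adjusted p = 0.00560, limma), and passed with its probe sets averaged.

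**Figure D3:**
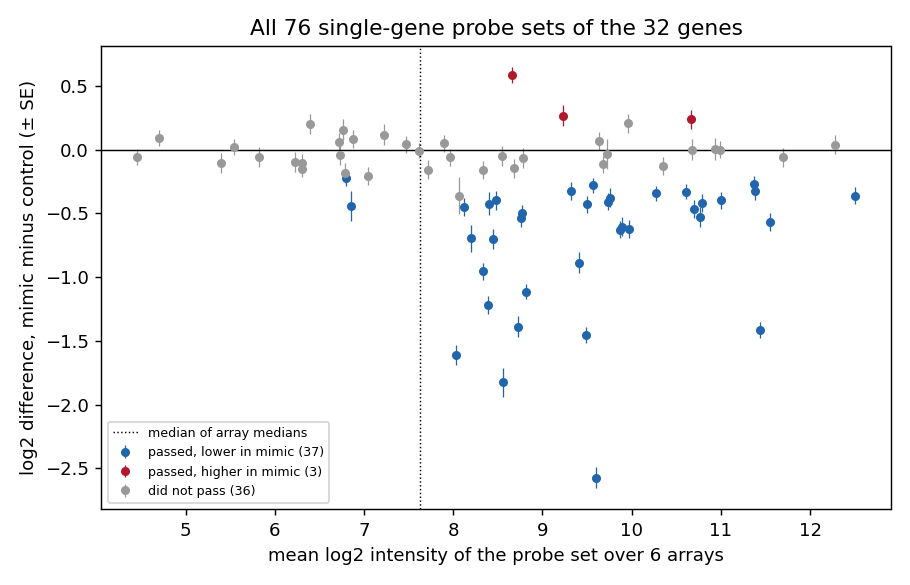
Each of the 76 single-symbol probe sets of the 32 genes by its mean log2 intensity over the 6 arrays (x axis) and its log2 difference, mimic minus control, with limma's standard error (y axis). The dotted line is the median of the array medians (7.62); 18 of the 20 probe sets to its left did not pass.

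Several steps have related enzymes, and 9 such pairs were compared through the log2 ratio of both genes on each array. A change of this ratio shows unequal change and does not show that either gene stayed level. RRM1/RRM2 shifted most among pairs of members: the ratio was 2.27, 2.52 and 2.68 in the mimic arrays against 0.34, 0.20 and 0.41 in the control arrays, a shift of 2.17. RRM2 was also measured against RRM2B, the p53-inducible small subunit that serves DNA repair, which had a difference of -0.04 ± 0.06 (SE); that ratio shifted by -2.53. TK1 against the mitochondrial kinase gene TK2, which rose by 0.36, gave a shift of -1.58, with no overlap between groups.

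CTPS1/CTPS2 shifted by -0.84, from a control mean of 1.29 ± 0.13 to 0.45 ± 0.15 (SD, n = 3 each). PRPS1/PRPS2 shifted by -0.59, with mimic arrays at 0.20, -0.21 and -0.43 and control arrays at 0.36, 0.44 and 0.53. IMPDH1/IMPDH2 moved by 0.24, so the ratio moved toward IMPDH1. MTHFD1/MTHFD1L moved by -0.59 and SHMT1/SHMT2 by 0.28, both read at a partner probe set below the array medians, and the SHMT1/SHMT2 ratios overlapped between groups. With SHMT1 and MTHFD1L read at their brightest probe sets, which are annotated to several genes, the shifts were -1.55 for MTHFD1/MTHFD1L and 0.08 for SHMT1/SHMT2, where the groups overlapped (a reading added after seeing the data). MTHFD2 against MTHFD2L, a second mitochondrial enzyme of the same type that fell by 1.55, shifted by 1.49. The exact two-sided permutation test gave p = 0.1 for 8 pairs, the smallest value that 3 arrays against 3 allow, and 0.3 for SHMT1/SHMT2 (0.113 and 0.3 adjusted over the 9 pairs), so no pair could pass 0.05. With all probe sets of each gene averaged, MTHFD2/MTHFD2L shifted by 0.48 and MTHFD1/MTHFD1L by -0.32.

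**Figure D4:**
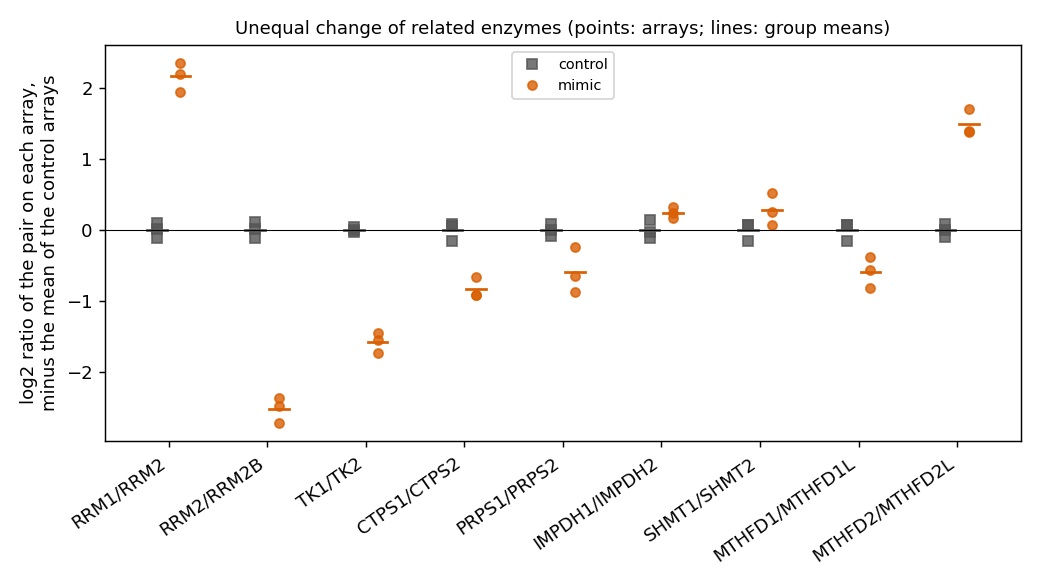
Log2 ratio of related enzymes on each array (points), minus the mean ratio of the control arrays, for the 9 pairs; short lines are group means of 3 arrays. The groups overlap for SHMT1/SHMT2 and are separate for the other 8 pairs.

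Other genes of the same pathways moved both ways. Of 43 such genes listed (salvage, transport, folate and glycine metabolism), 37 were read. Of the 37, 12 fell (32.4%), 8 rose (21.6%) and 17 did not pass, where 16.3% of all genes fell and 14.1% rose. The median log2 difference of the 37 was -0.04. Those at least 2-fold changed were ADSS1, the muscle-type adenylosuccinate synthase (difference 2.04 ± 0.09, SE), SLC29A1, the equilibrative nucleoside transporter (1.61 ± 0.06, SE), and MTHFD2L (-1.55 ± 0.13, SE). SLC29A1 rose at both of its probe sets, ADSS1 at 1 of 2, and MTHFD2L fell at 5 of 8. Among the remaining salvage genes, the mitochondrial kinase genes TK2 and DGUOK rose, by 0.36 and 0.40, as did TYMP, thymidine phosphorylase, by 0.72, while ADK, adenosine kinase, and PNP, purine nucleoside phosphorylase, fell by 0.59 and 0.76. GCSH, of the glycine cleavage system, fell by 0.77, and GGH, which trims folate chains, by 0.63. DGUOK, TYMP, ADK, PNP, GCSH and GGH were picked after their values were seen.

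Gene lists for cell division, amino acid shortage and MYC were read beside the synthesis genes. For comparison, 16.3% of all genes fell and 14.1% rose. Of 16 proliferation genes, none of them members, 15 fell and 0 rose, with a median log2 difference of -1.06; TOP2A, CDK1, CCNB1, AURKA, CCNE2, BUB1B, CCNA2, MCM2 and MCM4 were at least 2-fold lower. The mean of that list was 8.52 to 8.74 in the mimic arrays against 10.003 to 10.09 in the control arrays. Of 12 amino acid response genes, which include known targets of ATF4, 8 rose and 2 fell, with a median of 0.42; SLC7A11 and ATF3 were at least 2-fold higher. The mean of the amino acid list was 10.61 to 10.77 in the mimic arrays against 10.12 to 10.13 in the control arrays. MYC, a transcription factor known to act on many synthesis genes, fell from 12.33 to 10.92 (difference -1.41 ± 0.07, SE), and its antagonist MXI1 rose by 0.46; the other 4 genes of that list did not pass. The part of these lists in the changes of the synthesis genes was not tested.

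**Figure D5:**
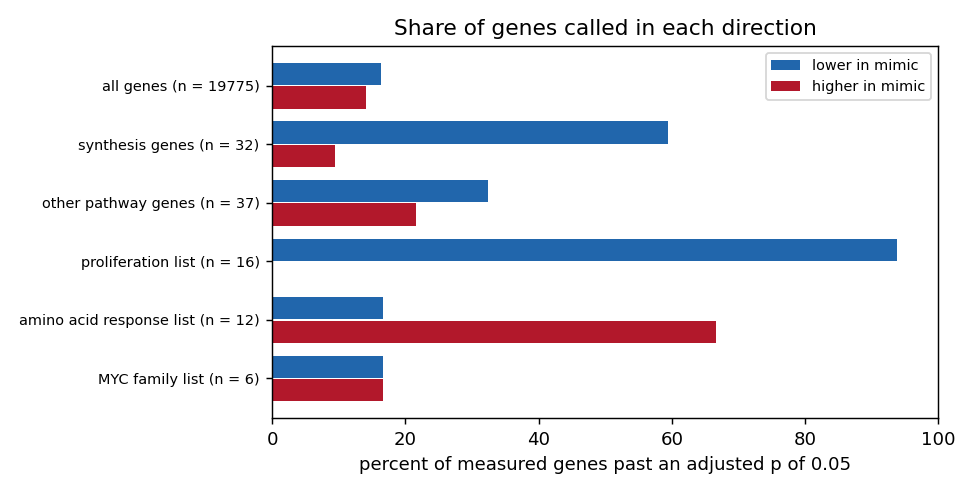
Percent of measured genes that passed an adjusted p of 0.05, lower (blue) or higher (red) in the mimic, for all genes and for each list, with the number of genes measured. The synthesis genes fell more often than they rose (19 and 3 of 32), the proliferation list fell in 15 of 16, and the amino acid response list rose in 8 of 12.

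Upstream sequences were compared because many members moved together. RefSeq promoters (GRCh38.p14, 250 bases before to 50 after the start) were matched for 28 of the 32 genes, not for ADSL, IMPDH2, SHMT2 and PSPH. Motifs were searched on both strands as exact letters, and 27305 promoters of the same length gave the comparison. Only the first listed promoter of each gene symbol was used, so other starts of a gene were not searched. The comparison promoters were not limited to the genes read on the arrays. The E-box CACGTG, bound by MYC and MAX, was in 7 of the 28 (25.0%) and in 7.43% of all promoters: in 4 of the 16 matched genes that fell (NME1, PPAT, ATIC and MTHFD1), in 1 of the 3 that rose (DCK) and in 2 of the 9 that did not pass (DHODH and MTHFD1L). CCAAT, the NF-Y type motif, was in 14 of 28 (50%) against 35.7%. TTTGGCGC or TTTCGCGC, exact forms of the E2F site, were in 0 of the 16 that fell and in 1 of 28 in all (DCK), against 1.18% of all promoters; other forms of that site were not searched. TGATGNAA, the C/EBP-ATF type, was in 1 of 28 (MTHFD1L) against 3.67%. A match is a description of letters and shows no binding.

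The 250 bases before the start are printed for RRM2, the largest fall, for MTHFD1, a fall whose sequence holds an E-box, and for PHGDH and PSAT1, which rose. Capitals mark CCAAT or CACGTG on the printed strand or its complement, and all 4 lie on the plus strand. The intervals are chr2:10122489-10122738 (RRM2), chr14:64388103-64388352 (MTHFD1), chr1:119711684-119711933 (PHGDH) and chr9:78296875-78297124 (PSAT1), upstream of the transcripts.
RRM2: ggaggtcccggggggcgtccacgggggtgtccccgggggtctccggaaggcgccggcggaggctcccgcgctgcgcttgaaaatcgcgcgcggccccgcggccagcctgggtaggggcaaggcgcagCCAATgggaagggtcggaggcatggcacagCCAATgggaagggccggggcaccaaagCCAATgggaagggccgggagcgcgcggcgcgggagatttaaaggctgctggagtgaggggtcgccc
MTHFD1: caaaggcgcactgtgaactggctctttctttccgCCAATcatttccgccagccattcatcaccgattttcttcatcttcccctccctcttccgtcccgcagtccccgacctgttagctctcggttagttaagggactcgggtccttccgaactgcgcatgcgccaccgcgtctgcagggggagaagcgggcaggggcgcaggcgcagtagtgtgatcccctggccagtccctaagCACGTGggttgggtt
PHGDH: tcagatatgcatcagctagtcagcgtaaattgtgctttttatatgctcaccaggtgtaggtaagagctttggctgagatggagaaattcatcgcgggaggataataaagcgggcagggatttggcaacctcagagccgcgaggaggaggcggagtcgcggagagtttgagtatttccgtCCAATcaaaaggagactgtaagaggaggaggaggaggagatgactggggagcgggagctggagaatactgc
PSAT1: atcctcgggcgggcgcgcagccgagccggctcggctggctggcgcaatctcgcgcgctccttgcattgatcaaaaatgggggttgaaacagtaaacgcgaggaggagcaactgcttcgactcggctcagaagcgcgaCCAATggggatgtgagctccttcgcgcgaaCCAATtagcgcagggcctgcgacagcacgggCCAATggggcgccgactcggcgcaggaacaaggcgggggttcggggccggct
RRM2 and PSAT1 each hold 3 CCAAT boxes in this window, and RRM2 fell while PSAT1 rose. MTHFD1 holds 1 CCAAT box and 1 E-box, and PHGDH holds 1 CCAAT box.

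Among the mimic arrays, replicate 1 was the lowest for 15 of the 19 genes that fell, replicate 3 for 4 and replicate 2 for 0. The mean over the 32 genes was 9.57, 9.65 and 9.69 in mimic replicates 1 to 3, and 10.06 to 10.13 in the control arrays. All 19 falls also passed without mimic replicate 1. The median within-group SD of the members was 0.11 in the mimic arrays against 0.06 in the control arrays. Across probe sets, the correlation was 0.995 to 0.998 within a group and 0.982 to 0.986 between groups. The 3' minus 5' signal of ACTB, an indicator of RNA integrity, was 0.33 to 0.39 in the mimic arrays against 0.29 to 0.36 in the control arrays (exact permutation p = 0.3); for GAPDH it was 0.02 to 0.04 and -0.05 to 0.02 (p = 0.1, the smallest possible with 3 against 3). The part of this in the results was not tested. All 6 measured mammary epithelial markers, KRT5, KRT14, KRT8, KRT18, EPCAM and CDH1, were above the array medians in both groups, and all 6 fell, with log2 differences of -1.54 for EPCAM, -1.73 for KRT5 and -2.23 for KRT14; their mean was 10.69 to 10.78 and 11.95 to 12.03. Of 14 markers of fibroblasts, endothelium and blood cells, 9 did not pass, 2 rose (14.3%) and 3 fell (21.4%). The shares over all genes were 14.1% and 16.3%. The mean of the 14 markers was 8.11 to 8.19 in the mimic arrays against 8.23 to 8.25 in the control arrays. These markers moved both ways: DCN, a fibroblast proteoglycan gene read at an x_at probe set, rose from 12.06 to 13.72, while LUM (log2 difference -1.06), which was below the array medians in both groups, KDR (-1.48) and CD14 (-1.15) fell. The part of these markers in the results was not tested.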

How the data were processed

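The values analysed are log2 intensities per probe set, which the authors made with RMA, a method that corrects background, normalizes arrays together and sums up probes, per the submitters' processing notes. That they are on a log2 scale was judged from their range, and no version of RMA is given in the sources used here. RMA makes array distributions alike, so total RNA per cell cannot be compared, and differences between dim values are compressed. Precision is limited by the number of arrays.

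The 62 control probe sets were left out, and 54613 were fitted with limma 3.58.1 (lmFit, eBayes) in R 4.3.3, mimic against control over all 6 arrays, with Benjamini-Hochberg adjustment over all of them. SE is limma's moderated standard error. Genes were named from the platform annotation, in which 41091 of these carry 1 symbol. Each gene was read at its probe set with the highest mean. The members and lists were chosen with earlier results of these data known. Every member is named; array values are given for members past the threshold and at least 1.5-fold changed and for the largest adjusted p, and those of PHGDH, PSAT1, DCK, SHMT1 and MTHFD1L were added after their values were seen. Of other genes, those past the threshold and at least 2-fold changed, or in a pair, are named; MXI1, CDH1, KRT8 and KRT18 were added after their values were seen. On simulated data with 200 of 54613 probe sets changed, 61.0% were called where the log2 change was 0.5 and 96.0% where it was 1. Unchanged probe sets made up 5.42% of the simulated calls. Far more were called in the data (11.6% of probe sets higher, 13.1% lower), and the simulated noise was independent between probe sets. The simulated shares may therefore not hold for the data. Alternatives covered filtering, normalization, moderation, weights, the replicate block, leaving out each array, probe set choice and thresholds. Figures were drawn with matplotlib 3.10.9 in Python 3.11.15. Some of the listed pathway genes are not reported here.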

Additional observations from a re-analysis of the deposited data

How the results depend on the processing

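All 19 falls were called under most alternatives: the exceptions were ATIC at an adjusted p under 0.01 and with the intensity trend removed, and a 1.5-fold minimum, which by construction left 9 members lower, 0 higher, 7 and 3 of the other pathway genes lower and higher, and 1723 of all genes (640 higher, 1083 lower). At an adjusted p under 0.01, 1815 of all genes were higher and 1 member. Leaving out 1 array gave 19 to 20 members lower and 1 to 3 higher. With arrays centred on their medians 1 member was higher (cause not tested). The members' median moved from -0.33 to -0.26 after quantile normalization, to -0.25 with all probe sets averaged and to -0.27 with the intensity trend removed (cause not tested); leaving out 1 array gave -0.35 to -0.30. With probe sets averaged, the pair shifts were 1.62 (RRM1/RRM2), -1.93 (RRM2/RRM2B), -1.27 (TK1/TK2), -0.65 (CTPS1/CTPS2), -0.32 (MTHFD1/MTHFD1L) and 0.48 (MTHFD2/MTHFD2L). With probe sets of several genes read too, they were 0.081 (SHMT1/SHMT2) and -1.55 (MTHFD1/MTHFD1L). 

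Signs turned only for members that did not pass in either setting, and for PHGDH: DUT (-0.12 with probe sets averaged, -0.00074 without x_at probe sets), PRPS2 (0.036 after quantile normalization, 0.016 averaged, 0.028 with the trend removed), ADSL (-0.022 centred), MTHFD2 (0.026 after quantile normalization, 0.0064 with the trend removed) and PHGDH (-0.078 at the probe set of several genes, a setting added after seeing the data). Leaving out 1 array turned DUT (-0.017 to 0.11), PRPS2 (-0.15 to 0.11), ADSL (-0.061 to 0.10), SHMT1 (-0.11 to 0.026), MTHFD2 (-0.12 to 0.0036) and MTHFD1L (-0.0026 to 0.11). Of 542 values of single members, 494 kept direction and side of the threshold. Deviations of same-numbered arrays from their group means were weakly correlated (-0.11, 0.08 and 0.08). These values cannot show whether the replicates were run in pairs. With the replicate number as a block 19 members fell and 2 rose, and PSAT1 no longer passed (0.24, adjusted p = 0.0629, limma).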
